A study of Mus musculus with 6 samples.

Results

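The copines are a family of calcium-dependent phospholipid-binding proteins, and the 6 family members described here are Cpne1, Cpne2, Cpne3, Cpne5, Cpne7 and Cpne8, taken by gene symbol from the 26428 genes of the deposited table. The family was chosen with the differences between these libraries known, above all that of Cpne5, so fold changes of the members are a description and carry no p-value. RNA sequencing had been carried out on alveolar macrophages, which clear particles and surfactant from the air spaces, in 3 control libraries titled WT with the genotype label Rack1F/- and 3 knockout libraries titled KO with the label Rack1{delta}Mye. RACK1 sits on the small subunit of the ribosome and also serves as a receptor for activated protein kinase C, and the knockout label names the myeloid lineage. The Cre driver, the strain, age and sex of the mice and any pooling of animals are not given in the sources used here. The labels do not tell whether each library is a separate animal, so every p-value measures the spread between these samples.

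A copine carries a pair of C2 domains, the calcium-sensing membrane-binding modules also found in synaptotagmins, followed by a domain that resembles the von Willebrand factor A domain and binds other proteins. When cytosolic calcium rises, the C2 domains bring the protein and its partners to phospholipid membranes. In macrophages calcium signals accompany phagocytosis, migration and secretion. Little is known of copines in alveolar macrophages.

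Cpne5 and Cpne8 were the closest relatives among the 6 members. Their proteins, translated from the GENCODE M21 coding transcripts, shared 80.3% of aligned residues, whereas the 15 pairs of members ranged from 50.1% upward with a median of 53.7%. Cpne1 and Cpne3 came next, at 67.3%. The proteins were 533 to 593 residues long. The longest identical run of bases between the coding sequences of any member pair was 12 to 20 bases, and it was 17 bases between Cpne5 and Cpne8. The stretch around that run is shown because it holds the longest run of identical coding bases of the closest pair. Capitals mark bases that are the same in the other copine, at 57 of 67 positions. In Cpne5 it spans coding bases 948 to 1014, at chr17:29164678-29166741 on the minus strand of GRCm38, and in Cpne8 coding bases 930 to 996, at chr15:90521912-90540255 on the minus strand, in each case across an intron.
Cpne5: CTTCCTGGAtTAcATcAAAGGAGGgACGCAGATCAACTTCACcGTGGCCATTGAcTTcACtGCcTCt
Cpne8: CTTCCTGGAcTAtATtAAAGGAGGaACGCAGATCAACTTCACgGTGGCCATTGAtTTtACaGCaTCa

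Library totals were 51894849 to 66163430 units of estimated count, where a read pair was worth about 4 units. Of the genes in the table, 14797 had enough counts to be tested with edgeR's quasi-likelihood test. Rack1, the targeted gene, stood at 77.3, 83.5 and 81.1 CPM (counts relative to library size, scaled by the TMM method) in the control libraries, in replicate order, and at 38.6, 38.2 and 34.1 CPM in the knockout libraries. It was lower in every knockout library (log2 fold change -1.12 ± 0.11 SE, adjusted p = 0.000207 by edgeR, with Benjamini-Hochberg adjustment as for every adjusted p here). In these bulk samples, fewer cells of a type and less RNA per cell cannot be told apart.

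Of the 6 copines, Cpne5 alone was called, and it was lower in knockout. Cpne1, Cpne2, Cpne3 and Cpne8 were tested and not called, and Cpne7 had too few counts for a test. Over all genes tested, 11.9% were called, 5.93% higher and 6.01% lower, and since the members were chosen on this contrast nothing is read from their count of 1 lower and 0 higher among 5 tested. The CPM of knockout and control libraries did not overlap for 31.2% of all tested genes, and for 2 of the 5 tested copines, Cpne5 and Cpne1.

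Cpne5, known from neurons of the developing mouse brain and, in human blood, from B cells, carried the difference. The gene (ENSMUSG00000024008) lies at chr17:29155556-29238167 on the minus strand. It stood at 95.2, 68.2 and 95.0 CPM in replicates 1, 2 and 3 of the controls and at 11.9, 10.04 and 10.6 CPM in those of the knockout. Every knockout library was far below the lowest control library, and the 3 knockout values lay close together. The means were 86.2 ± 15.6 CPM in control and 10.8 ± 0.924 CPM in knockout (SD, n = 3 per group), a 7.95-fold lower level with a log2 fold change of -2.99 ± 0.16 SE. Of all tested genes, 1.02% had a log2 fold change as low or lower. The counts behind these levels were 4207 to 8150 units in control and 416 to 639 units in knockout, well above the floor of 12 units, or 3 read pairs, so that the remaining Cpne5 signal in knockout was measurable.

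Cpne8, its closest relative, had like levels in both groups. Cpne8 (ENSMUSG00000052560, chr15:90487482-90679432, minus strand), a widely expressed and little described copine, stood at 65.7, 61.3 and 67.9 CPM in control and 61.3, 68.3 and 60.3 CPM in knockout. The groups overlapped, with means of 65.0 ± 3.33 and 63.3 ± 4.37 CPM (SD, n = 3 per group). The log2 fold change was -0.04 ± 0.11 SE.

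Cpne3 is of interest beside a Rack1 knockout because human copine-3 has been reported to bind both RACK1 and the receptor ErbB2 in breast cancer cells. Cpne3 (ENSMUSG00000028228, chr4:19519254-19570108, minus strand) stood at 22.8, 26.1 and 28.7 CPM in control and 26.1, 26.0 and 25.5 CPM in knockout. All 3 knockout libraries fell within the control range. The log2 fold change was -0.00 ± 0.13 SE, and its sign depended on the setting, being below 0 under 9 of 15 alternatives and above 0 under 6.

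Cpne1, whose human protein has been reported to bind the p65 subunit of NF-kappaB and lower its activity, showed a small difference that did not pass the test. Cpne1 (ENSMUSG00000074643, chr2:156071842-156111965, minus strand) stood at 12.9, 12.3 and 15.2 CPM in control and 10.9, 8.45 and 10.9 CPM in knockout. All knockout values were below all control values, and the log2 fold change was -0.41 ± 0.16 SE. Rbm12, which encodes an RNA-binding protein, overlaps Cpne1 on the same strand, so that reads of the shared exons may be divided between both genes. Rbm12 stood at 3.46 to 4.13 CPM in control and 2.37 to 4.55 CPM in knockout and was not called (log2 fold change -0.18, adjusted p = 0.749 by edgeR).

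Cpne2 and Cpne7 were at the edge of detection. Cpne2 (ENSMUSG00000034361, chr8:94532990-94570531, plus strand), a copine of little known function, had 25, 8 and 49 units in control and 4, 29 and 97 units in knockout, with control replicate 2 and knockout replicate 1 under the floor. The groups overlapped, and the log2 fold change of 1.05 ± 0.90 SE became 0.01 without knockout replicate 3. Cpne7 (ENSMUSG00000034796, chr8:123117374-123135182, plus strand), known in the mouse from tooth-forming cells, had 7, 0 and 0 units in control and 2, 5 and 0 units in knockout, all under the floor. Of the other mouse copines, Cpne9 had 0, 0 and 0 units in control and 0, 3 and 0 units in knockout. Cpne4 and Cpne6 had no row in the table used here, so their levels were not analysed. The table rows of Cpne7 and Cpne9 list retained-intron transcripts and no coding transcript.

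**Figure D1:**
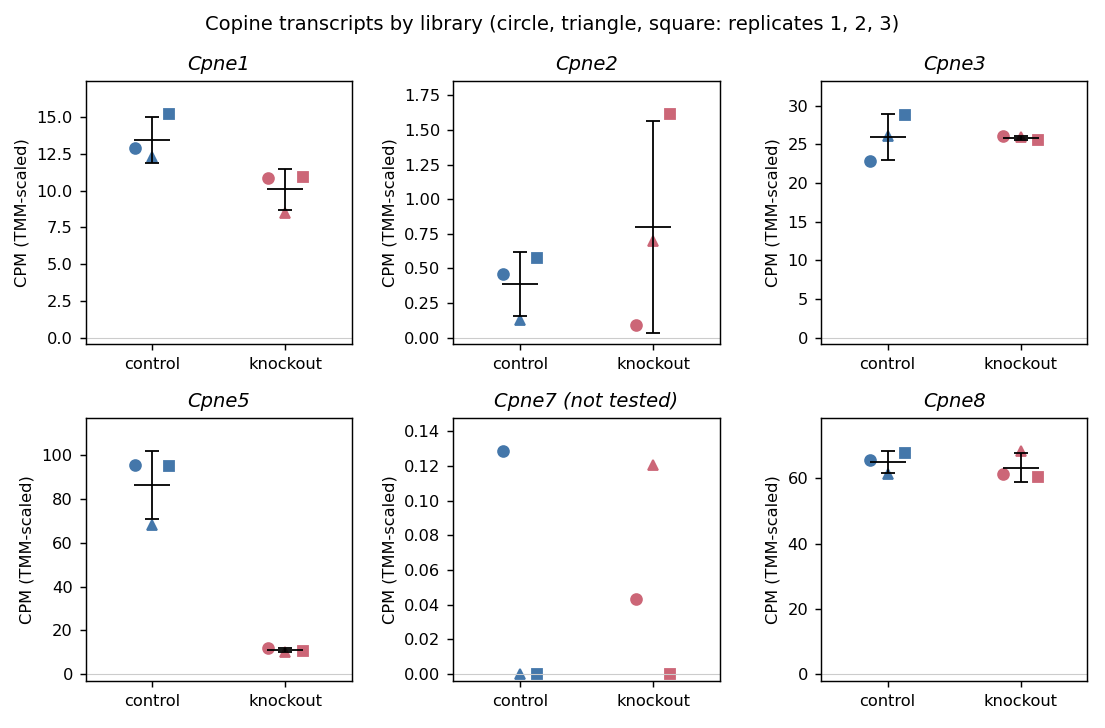
TMM-scaled CPM (vertical axes, each starting near 0 with its own range) of the 6 copines in the 3 control and 3 knockout libraries; symbols are libraries, and lines with bars are the mean and SD over 3 libraries, left out for Cpne7. Cpne5 falls from 68.2 to 95.2 CPM in control to 10.04 to 11.9 CPM in knockout, while the groups of Cpne2, Cpne3 and Cpne8 overlap.

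Compared per length, the copine transcripts of control macrophages were mainly those of Cpne8 and Cpne5, and those of knockout macrophages mainly those of Cpne8 and Cpne3. By the deposited FPKM, which divides the estimated count by exon length, Cpne8 stood at 14.3, 15.5 and 20.1 FPKM in control and 11.3, 12.5 and 14.8 FPKM in knockout. Cpne5 stood at 6.37, 5.29 and 8.62 FPKM in control and 0.669, 0.559 and 0.802 FPKM in knockout. The FPKM order was Cpne8, Cpne5, Cpne3, Cpne1, Cpne2 and Cpne7 in every control library. In every knockout library Cpne5 had moved to the fourth place, below Cpne3 and Cpne1.

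Neighbours in this order mostly differed by more than their spread. Cpne3 had 2.90, 3.86 and 4.96 FPKM in control and 2.81, 2.76 and 3.67 FPKM in knockout. Cpne1 had 2.58, 2.86 and 4.13 FPKM in control and 1.84, 1.41 and 2.47 FPKM in knockout. In control the ranges of Cpne3 and Cpne1 overlapped over libraries, so that their order does not hold beyond the spread, although Cpne3 was the higher in each library. In both groups the FPKM ranges of Cpne8 and of Cpne5 overlapped with no other copine.

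Cpne5 made up 22.0% ± 2.57 of the summed copine FPKM in control and 3.61% ± 0.397 in knockout (SD, n = 3 per group). The share was 19.2% to 24.2% over control libraries and 3.22% to 4.01% over knockout libraries. Cpne8 made up 54.5% ± 1.73 and 68.7% ± 2.67, and Cpne3 12.7% ± 1.51 and 16.4% ± 0.488. The share of Cpne1 was 10.4% ± 0.544 in control and 10.1% ± 1.70 in knockout. With FPKM divided by the TMM factor of each library, the 6 copines summed to 27.1 ± 2.42 in control and 20.8 ± 0.778 in knockout. The shares of Cpne8 and Cpne3 were larger where that of Cpne5 was smaller, while their own CPM overlapped between groups.

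The length used in FPKM bears on these shares. For Cpne3, Cpne5 and Cpne8 the length implied by the deposited count and FPKM lay within 1% of the joint exon length of all listed transcripts, and it was 1.03 to 1.04 times that length for Cpne1 and 1.04 to 1.23 times for Cpne2. For Cpne5, with 6 transcripts that include retained introns, the joint length is 13544 bases against 5708 bases of its coding transcript. The ratio of joint to coding transcript length is 2.37 for Cpne5 and 1.24 to 1.33 for Cpne1, Cpne2, Cpne3 and Cpne8. It is 2.17 for Cpne7, which lies under the floor and has no coding transcript in its table row. With counts divided by the length of the coding transcript instead, Cpne5 made up 34.9% ± 3.41 in control and 6.66% ± 0.706 in knockout. Cpne8 exceeded Cpne5 by 2.25 to 2.93 times in control libraries and 16.9 to 22.3 times in knockout libraries by FPKM. By coding length it did so by 1.17 to 1.52 times and 8.78 to 11.5 times. The order of the 6 members was the same by both lengths in each library. By coding length, without scaling for library size, Cpne8 (1064 to 1729 units per kilobase) and Cpne5 (737 to 1428) overlapped in control. In knockout Cpne5 (72.9 to 111.9 units per kilobase) and Cpne1 (100.2 to 187.9) overlapped. Unlike FPKM, these ranges also hold the differences in library size, so the overlaps are not read as an effect of the length.

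**Figure D2:**
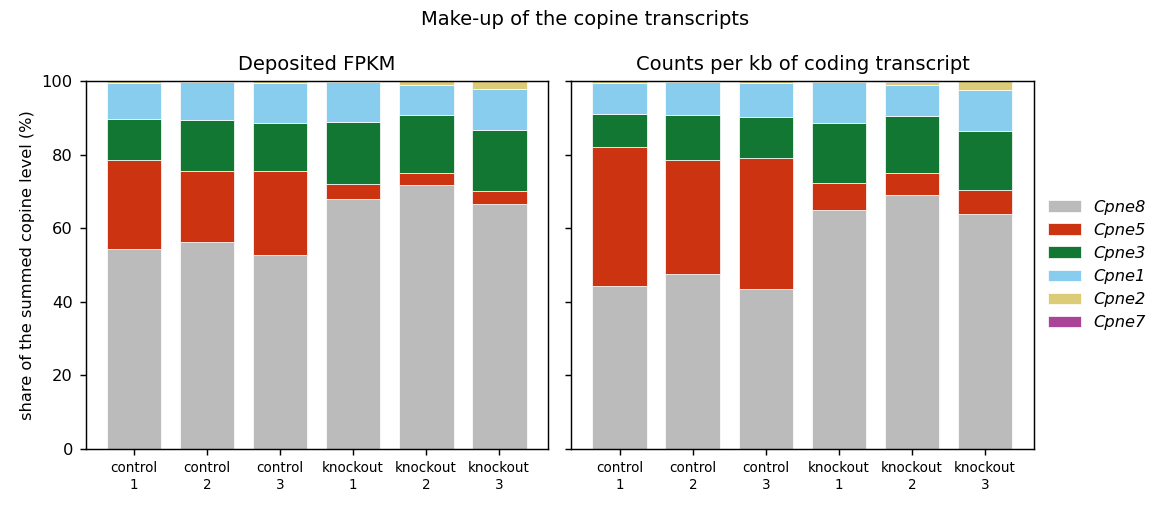
Share of each copine in the summed copine level (vertical axis, percent) in the 6 libraries, by deposited FPKM on the left and by estimated counts per kilobase of coding transcript on the right; each bar is 1 library. The Cpne5 share is 19.2% to 24.2% in control and 3.22% to 4.01% in knockout by FPKM, and it is larger by coding length in all libraries.

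Cpne5 was called lower under every alternative run. Over 15 alternatives its log2 fold change ran from -3.31, with library totals, to -2.19, with limma at a pseudocount of 1 FPKM. That pseudocount is above the knockout FPKM of Cpne5. With any 1 library left out, the log2 fold change was -3.14 to -2.92. Cpne1, Cpne3 and Cpne8 were called in none of 15 alternatives and Cpne2 in none of the 13 in which it was tested. Scaling by library totals moved the median log2 fold change of all tested genes from 0.01 to -0.31. Under that scaling Cpne3 stood at -0.34 and Cpne8 at -0.37, which is -0.03 and -0.06 relative to that median. Cpne5, at -3.31, was -3.00 relative to it.

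**Figure D3:**
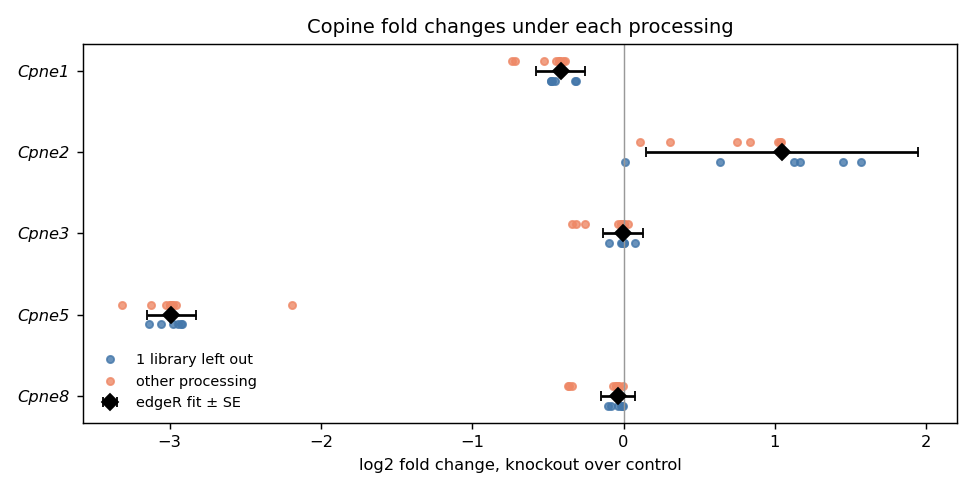
Log2 fold change, knockout over control, of the 5 tested copines (horizontal axis); black diamonds with bars are the edgeR estimate and its SE, and circles are alternatives with 1 library left out or with other processing. Cpne5 stays between -3.31 and -2.19, Cpne1 stays below 0, and the leave-one-out values of Cpne2 reach down to 0.01.

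Genes nearest to the copines on the chromosome were compared as well. The nearest tested gene on each side of the 6 members and the genes overlapping them came to 13 genes. Of these, 0 were called higher, 2 lower and 11 not called, against 5.93% and 6.01% of all tested genes. Not all lay close by. Ripk2 was 3355607 bases from Cpne3, and Alg10b and Rpl31-ps8 were 254011 and 84847 bases from Cpne8. Rab44, which encodes a large Rab GTPase, lies 6576 bases from Cpne5 on the opposite strand. It stood at 34.9, 27.3 and 26.4 CPM in control and 14.5, 16.5 and 20.7 CPM in knockout, lower in every knockout library (log2 fold change -0.78 ± 0.17 SE, adjusted p = 0.0154, edgeR). On the other side of Cpne5, 12636 bases away, Ppil1, a peptidyl-prolyl isomerase gene of the spliceosome, stood at 26.4 to 30.2 CPM in control and 27.8 to 31.9 CPM in knockout and was not called (log2 fold change 0.04, adjusted p = 0.906, edgeR). Neither neighbour had a log2 fold change near the -2.99 of Cpne5. Rmdn1, a regulator of microtubule dynamics 5054 bases from Cpne3 on the opposite strand, was lower in knockout (log2 fold change -0.55 ± 0.14 SE, adjusted p = 0.0263, edgeR). The call of Rab44 was lost without control replicate 1 or knockout replicate 1 or 2 (adjusted p 0.0607 to 0.0743, edgeR), and that of Rmdn1 without any 1 library but control replicate 3 (adjusted p 0.0543 to 0.117, edgeR).

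The 3 genes whose log2 CPM was most like that of Cpne5, among 3703 tested genes with a mean of at least 5 FPKM, were Ppp4c, Eif4h and Pdcl3. Their Pearson r with Cpne5 over the 6 libraries was 0.998, 0.995 and 0.995. The libraries fall into 2 groups that both genes of a pair separate, so r mainly follows the group difference and is given as a measure of likeness with no p. Ppp4c, the catalytic subunit of protein phosphatase 4, stood at 100.2 to 104.5 CPM in control and 72.8 to 75.8 CPM in knockout. Eif4h, a translation initiation factor that stimulates the helicase eIF4A, stood at 81.3 to 85.6 and 52.5 to 52.9 CPM. Pdcl3, a phosducin-like chaperone gene, stood at 25.8 to 28.9 and 18.2 to 18.9 CPM. The log2 fold changes of the 3 genes were -0.47, -0.65 and -0.56. Their groups were separate, as those of Cpne5 were, but the choice by likeness to Cpne5 favoured this and its direction in advance.

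Several genes of other membrane proteins with C2 domains, most of them at low levels, were called higher in knockout. Of 46 such genes, 20 were tested, 7 were called higher, 1 lower and 12 not called, against 5.93% higher and 6.01% lower over all tested genes, and their median log2 fold change was 0.41, against 0.01 over all tested genes. Scaling by library totals left 4 called higher and 2 lower. Knockout means were 0.570, 0.604, 0.288, 0.230 and 0.914 FPKM for Dysf, Unc13d, Unc13a, Rph3a and Rasa4, and control means were lower still. The gene called lower, Syt3, had 60, 47 and 37 units in control and 0, 0 and 4 in knockout. It had enough counts to be tested through the control libraries alone. Rph3a, with 0, 10 and 14 units in control and 30, 75 and 80 in knockout, was tested mainly through the knockout libraries. The direction of both calls was thus favoured in advance, and nothing is read from them. With a filter at a mean of at least 1 FPKM, only Esyt1 and Myof were called higher. Dysf, which encodes the membrane repair protein dysferlin, stood at 2.15, 1.17 and 1.01 CPM in control and 5.79, 6.18 and 4.99 CPM in knockout (log2 fold change 1.98 ± 0.31 SE, adjusted p = 0.00279, edgeR). Unc13d, a priming factor for granule release in leukocytes, stood at 0.257, 0.729 and 0.268 CPM in control and 3.22, 2.37 and 4.14 CPM in knockout (log2 fold change 2.96 ± 0.47 SE, adjusted p = 0.00314, edgeR). In both genes every knockout library was above every control library.

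Esyt1, an extended synaptotagmin that tethers the endoplasmic reticulum to the plasma membrane, was the most abundant of the C2 genes named here. It stood at 49.3, 42.5 and 56.0 CPM in control and 82.2, 84.3 and 100.5 CPM in knockout, with no overlap (log2 fold change 0.85 ± 0.14 SE, adjusted p = 0.00360, edgeR). Unc13a, a synaptic vesicle priming factor in neurons, stood at 0.624, 0.405 and 1.12 CPM in control and 3.42, 2.22 and 6.50 CPM in knockout (log2 fold change 2.48 ± 0.48 SE, adjusted p = 0.00834, edgeR). Myof, Rph3a and Rasa4 were the other genes called higher. With 1 library left out, the call of Myof was lost in all 6 cases (adjusted p 0.0518 to 0.139, edgeR). That of Rph3a was lost without replicate 2 or 3 of either group (adjusted p 0.0598 to 0.128, edgeR), and that of Rasa4 without control replicate 1 or 3 or knockout replicate 3 (adjusted p 0.0511 to 0.0727, edgeR). The calls of Dysf, Unc13d, Esyt1 and Unc13a held with each library left out in turn. Esyt1 was not called with library totals (adjusted p = 0.219, edgeR) or in either limma fit (adjusted p 0.269 and 0.272), and Unc13a in neither limma fit (adjusted p 0.178 and 0.152). The single gene called lower, the synaptotagmin Syt3, was named after its values were seen. It stood at 1.10, 0.762 and 0.431 CPM in control and 0, 0 and 0.0665 CPM in knockout, and leaving out control replicate 1 or 2 or knockout replicate 1 or 2 ended its call (adjusted p 0.0576 to 0.0981, edgeR).

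The annexins are another large family of calcium-dependent phospholipid-binding proteins. Of 12 annexins 10 were tested, 1 was called higher and 0 lower, a share near the 11.9% called over all tested genes, with a median log2 fold change of -0.12. Anxa4 stood at 217.4, 201.6 and 227.4 CPM in control and 304.3, 285.6 and 286.9 CPM in knockout (log2 fold change 0.44 ± 0.12 SE, adjusted p = 0.0410, edgeR). Although its groups did not overlap, the call was lost whichever of the 6 libraries was left out (adjusted p 0.0570 to 0.153, edgeR). A further list, added after seeing the data, held the genes that the table's Gene Ontology annotation places under calcium-dependent phospholipid binding. Of these, 16 other than the copines were tested, with 3 called higher and 0 lower, against 5.93% and 6.01% over all tested genes. The 3 were Anxa4, Esyt1 and Rph3a, all counted above among the annexins or C2 genes, with the limit on Rph3a given there.

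Proteins reported to bind copines in human or mouse cells were also counted. Rack1, itself a reported partner, is the targeted gene and was not on this list. Of 16 partners, all tested, 2 were called higher, 1 lower and 13 not called, against 11.9% called in either direction over all tested genes, and their median log2 fold change was -0.01. Ube2m, the NEDD8-conjugating enzyme, was higher at 44.6 to 54.4 CPM in knockout against 30.8 to 34.3 CPM in control (log2 fold change 0.60, adjusted p = 0.0112, edgeR). Cdc42bpb, a kinase that acts downstream of Cdc42 on the actin cytoskeleton, was higher at 6.86 to 7.97 CPM against 3.72 to 5.84 CPM (log2 fold change 0.75, adjusted p = 0.0456, edgeR). Akt1, a kinase of growth factor signalling, was lower at 98.3 to 115.6 CPM against 142.7 to 150.0 CPM (log2 fold change -0.47, adjusted p = 0.0251, edgeR). None of these calls held with every library left out in turn. The call of Ube2m was lost without control replicate 1 (adjusted p = 0.0555, edgeR), that of Cdc42bpb without any 1 library but control replicate 2 (adjusted p 0.0750 to 0.159, edgeR), and that of Akt1 without any 1 library but knockout replicate 3 (adjusted p 0.0571 to 0.0913, edgeR).

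**Figure D4:**
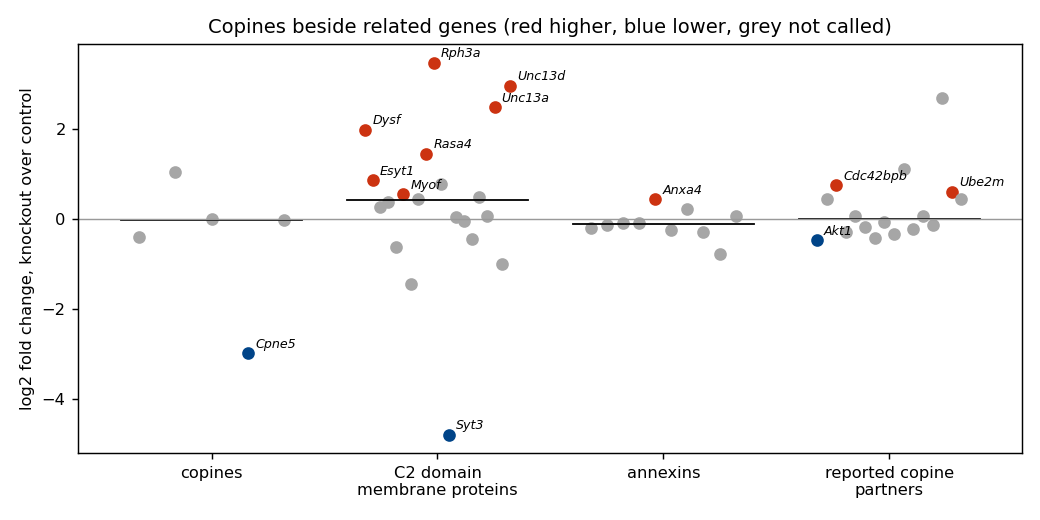
Log2 fold change, knockout over control (vertical axis), of each tested gene among the 5 copines, 20 C2 domain membrane proteins, 10 annexins and 16 reported copine partners; a point is a gene, black lines are list medians, and named points were called higher (red) or lower (blue) by edgeR. Cpne5 lies at -2.99, and 7 of the 8 called C2 genes lie above 0.

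The libraries carried the markers of alveolar macrophages in both groups. Their 10 markers, all tested, summed to 75823 to 150687 CPM in control and 87989 to 157479 CPM in knockout, mostly from Chil3. Car4 and Marco were called higher and Siglecf and Fcgr1 lower in knockout, and 6 were not called, against 11.9% called over all tested genes. Some of the markers themselves thus differed beside Cpne5. B cells are the human blood cells best known for this copine. Of their 7 markers 6 were in the table, 4 were tested and 0 called. With 11.9% called over all tested genes, nothing is read from 0 of 4. Cd79a stood at 0.178 to 0.404 CPM in control and 0 to 0.366 CPM in knockout. The whole B cell list summed to 34.0 to 42.1 CPM in control and 44.0 to 48.1 CPM in knockout, mostly from Cd22, and 2 of the 4 tested genes had a log2 fold change above 0.

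Of 6 markers of fibroblasts and muscle, all tested, 2, Myh11 and Des, were called lower, 0 higher and 4 not called, against 6.01% lower over all tested genes. They summed to 6.48 to 11.3 CPM in control and 3.29 to 4.97 CPM in knockout. Myh11, the smooth muscle myosin heavy chain, was listed at 0 in every knockout library and stood at 0.781 to 1.59 CPM in control. It thus had enough counts to be tested through the control libraries alone. Markers of monocytes and interstitial macrophages summed to 46.1 to 81.4 CPM in control and 110.4 to 226.2 CPM in knockout. Of the 6, all tested, 4 had a log2 fold change above 0, C1qa and C1qb were called higher and 4 were not called. Over all tested genes, 5.93% were called higher and 6.01% lower. Neutrophil markers summed to 38.9 to 62.9 and 110.5 to 117.4 CPM, with 0 of 5 tested called higher and 1, Ly6g, called lower. Epithelial markers summed to 40.8 to 73.9 and 44.6 to 51.7 CPM, with Sftpc and Sftpa1 called higher and Krt8 lower among 6 tested. The summed ranges of plasma cell, T and NK cell, dendritic cell, eosinophil and mast cell, endothelial and neuronal markers overlapped between groups, and 0 of their tested genes were called. Plasma cell markers summed to 1.73 to 30.0 CPM in control and 4.80 to 8.06 CPM in knockout, and 0 of the 3 tested had a log2 fold change above 0. The part of these other cells in the Cpne5 difference was not tested.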

How the data were processed

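Total RNA of 6 libraries was extracted with TRIzol and sequenced from NEBNext Ultra libraries, per the labels' protocols. GRCm38 and the tools HISAT2, StringTie, cutadapt, FastQC, edgeR and DESeq2 appear in the submitters' processing notes, without versions or roles. The authors deposited, for each gene in each library, an estimated count in whole numbers and an FPKM value, per the file headers. For 70.8% to 73.8% of genes over 500 units, deposited FPKM fell within 1% of count over the joint exon length of the listed transcripts.

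Genes passing edgeR's expression filter were tested with its quasi-likelihood test after TMM scaling, with no covariate and Benjamini-Hochberg adjustment at 0.05 over all tested genes. Standard errors were derived from log2 fold changes and F statistics. Levels are compared between genes by FPKM and within a gene by CPM. Likeness used log2(CPM + 0.1). The coding sequences came from GENCODE M21, and their translations were aligned with BLOSUM62, in place of the RefSeq protein table that was planned. The members, lists, marker sets and tests were chosen with earlier results of these data known. Genes named are all copines, up to 4 called genes per list by smallest p, nearest neighbours, the 3 genes most like Cpne5, and Rack1. Markers beyond these 4, Syt3, Myof, Rph3a and Rasa4, and the B cell genes were named after their values were seen. Alternatives were other scalings, filters and tests, a block for the replicate number and fits without each library. The fit was checked on simulated counts. Floors of 12 units per library cover counting error only.

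Fits were made in R 4.3.3 with DESeq2 1.42.0, limma 3.58.1 and edgeR 4.0.16, and summaries and figures in Python 3.11.15 with Biopython 1.88, numpy 2.4.6, pandas 2.3.3 and matplotlib 3.10.9.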

Additional observations from a re-analysis of the deposited data

How the results depend on the processing

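Over 15 alternatives, 0 copines were called higher and 1, Cpne5, lower. Genes called over the whole table, 878 higher and 889 lower with edgeR, came to 290 higher and 933 lower with library totals, 194 higher with limma at a pseudocount of 1 FPKM and 213 at 0.1 FPKM. With 1 library left out they were 455 to 691 higher and 372 to 565 lower. C2 genes called higher numbered 4 with library totals, 2 with a mean FPKM of at least 1 and 2 with each limma fit, and 4 to 6 with 1 library left out. C2 genes called lower numbered 2 with library totals, without the filter and with DESeq2, 0 with a mean FPKM of at least 1, and 0 to 1 with 1 library left out. Annexins called higher numbered 0 with library totals, without the filter, with both limma fits and with any 1 library left out, and with library totals 1 was called lower. Partners called higher numbered 0 with library totals and both limma fits, 4 with DESeq2 and 0 to 2 with 1 library left out, and those called lower 0 with both limma fits and 0 to 1 with 1 library left out. Genes of calcium-dependent phospholipid binding, 3 higher and 1 lower with the copines included, came to 1 higher and 2 lower with library totals, 0 higher with both limma fits, and 1 to 2 higher and 1 lower with 1 library left out. The limma fits used the deposited FPKM without TMM scaling. Median log2 fold changes of all tested genes were -0.31 with library totals, -0.13 and -0.28 with limma at 1 and 0.1 FPKM, and 0.01 with TMM. The cause of the changes in calls was not tested. The Cpne5 share of 22.0% in control and 3.61% in knockout was 34.9% and 6.66% with the length of the coding transcript. Dividing FPKM by TMM factors leaves shares the same by construction, and CPM gives no share between genes.

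The replicate numbers are no pairing given by the labels, and same-numbered libraries did not deviate together (correlations 0.03, -0.04 and 0.00 for numbers 1, 2 and 3). With the replicate block, 770 genes were called higher and 699 lower, C2 genes called lower came to 0, since Syt3 had an adjusted p of 0.0603 (edgeR), and Cpne5 had a log2 fold change of -2.98.

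Low counts limit Cpne2, Cpne7, Syt3 and Rph3a, and in control also Unc13d and Unc13a. Rph3a had 0, 10 and 14 units in control, with replicates 1 and 2 under the floor. Unc13d had 14, 45 and 23 units in control, and Unc13a 34, 25 and 96. Cpne2 varied widely between libraries, with an SE of 0.90 on the log2 scale, and Cpne7 lies under the floor in every library. The 3 libraries of a group, with no stated animals or batches, limit every comparison.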
